A study of Mus musculus with 12 samples.

Results

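The 5 genes that encode the NF-κB transcription factor subunits, Rela, Relb, Rel, Nfkb1 and Nfkb2, were followed in dendritic cells derived from mouse bone marrow (BMDC) over 12 RNA-seq libraries. They were chosen by gene symbol, are 5 of the 55335 genes listed in the files, and all 5 were among the 14357 genes tested after the filter on low counts. BMDC were grown from C57BL/6 bone marrow with GM-CSF, a cytokine that drives marrow precursors towards a dendritic cell state, for 6 days with medium changes every 2 days. All groups carried the CreER transgene with intact Ctcf alleles and are named WT. WT was left without lipopolysaccharide (LPS), a cell wall component of Gram-negative bacteria, and WTL received LPS at 100 ng/ml for 3 h. WT + JSH23 and WTL + JSH23 were the same cells given JSH-23 at 100 µM for 3 h, ahead of LPS in WTL + JSH23. JSH-23 is a small molecule used to keep RelA out of the nucleus. Each group had 3 libraries. According to the methods of the study the cells were floating CD11c+ cells selected on beads from adult mice of both sexes, with Rosa26-CreER littermates as WT. The methods call the libraries biological replicates. The study describes 4-hydroxytamoxifen as added to cultures to delete Ctcf in knockout cells but not in WT. Its wording does not settle whether WT cultures also received the compound. Whether the libraries came from separate mice and whether a JSH-23 solvent control was used is not given in the sources used here, so p values measure the spread between these libraries, which may be technical.

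NF-κB proteins bind DNA as dimers. RelA, RelB and c-Rel (encoded by Rela, Relb and Rel) carry transactivation domains, whereas Nfkb1 and Nfkb2 encode precursors that are processed to DNA-binding subunits without such a domain. In resting cells the dimers are held in the cytoplasm by IκB proteins. LPS activates the IKK complex through Toll-like receptor signalling, IκB is degraded, and dimers enter the nucleus. The non-canonical branch instead acts through the kinase NIK, which triggers processing of the Nfkb2 precursor and releases RelB dimers. In dendritic cells RelB is known for its part in maturation and c-Rel for its part in interleukin-12 transcription. Genes of this family and their inhibitors are themselves known NF-κB targets.

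Of the 5 subunits, 3 matched promoter windows of RefSeq on GRCm38.p6, namely Nfkb2 with 3 windows, Rel and Rela. They are shown because genes of this family are known NF-κB targets, so that the recognition sequence of the family can be looked for in front of its own genes. The 250 bases upstream of each annotated start were searched for the κB consensus motif on both strands. At least 1 match was present in 1281 of the 32851 windows in the RefSeq table (3.9%), and 162 windows (0.493%) had 2 or more, overlapping matches included. Stretches around the matches follow, 5′ to 3′ along the gene, with matched bases in capitals. For Rela, which had 0 matches in this window, the stretch next to the start is shown.
Nfkb2 (chr19:46304658-46304736, plus strand): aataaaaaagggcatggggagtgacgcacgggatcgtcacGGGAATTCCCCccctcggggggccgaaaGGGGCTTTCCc
Nfkb2 (chr19:46305445-46305508, plus strand): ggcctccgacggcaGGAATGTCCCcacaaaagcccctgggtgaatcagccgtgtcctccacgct
Nfkb2 (chr19:46305680-46305754, plus strand): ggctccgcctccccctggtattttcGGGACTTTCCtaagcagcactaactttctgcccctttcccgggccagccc
Rel (chr11:23771011-23771101, minus strand): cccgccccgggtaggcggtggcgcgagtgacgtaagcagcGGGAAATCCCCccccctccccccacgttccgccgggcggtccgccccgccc
Rela (chr19:5637441-5637540, plus strand): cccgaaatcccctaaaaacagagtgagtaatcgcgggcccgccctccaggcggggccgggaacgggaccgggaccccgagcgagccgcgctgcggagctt
The first Nfkb2 window held matches at positions -39, -38 and -11 from its annotated start, of which the ones at -39 and -38 overlap. The second held a match at -236 and the third at -225, and these windows overlap in part. Rel held overlapping matches at -92 and -91. These matches describe letters in the window and were not tested as binding sites.

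Each library held between 24664724 and 34837847 expected counts, and a subunit held between 3874 and 28505 of them, so that the counting (Poisson) error of a single value was at most 1.61%. The labels give no batch. The libraries without JSH-23 were numbered 4 to 6 and those with it 1 to 3. The study has other WT and WTL replicates numbered 1 to 3, so the numbers alone do not tell of preparation. Any difference in preparation between groups with and without JSH-23 could not be told apart from JSH-23. WTL + JSH23 replicate 3 stood apart from the others of its group, with a chi-square statistic of the counts per degree of freedom of 8.18 and 9.11, beside 2.33 to 4.50 for all other pairs of replicates. All 10 dendritic cell markers examined, Itgax and Zbtb46 among them, exceeded 1 TPM in at least 1 library of each group. Summed levels of 10 macrophage markers ran from 3118 to 3238 TPM in WT, 2202 to 2369 in WTL, 2368 to 2435 in WT + JSH23 and 1866 to 1939 in WTL + JSH23. Neutrophil markers summed to between 269 and 379 TPM, with 6 to 8 of the 10 above 1 TPM in a library of a group, and were highest in WT (367 to 379) and lowest in WTL + JSH23 (269 to 291). T cell markers summed to at most 8.74 TPM, basophil or mast cell markers to at most 3.03 TPM and B cell markers to at most 0.63 TPM. Mitochondrially encoded transcripts summed to between 40430 and 48777 TPM. The part of the macrophage and neutrophil marker shifts in the results below was not tested. In bulk RNA, fewer cells of a type and less RNA per cell cannot be told apart.

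Levels of the subunits relative to each other were read from TPM, an abundance adjusted for transcript length and library size. In WT, Relb was the most abundant with 267 ± 12.6 TPM (SD, n = 3), followed by Nfkb1 with 242 ± 5.48, Nfkb2 with 217 ± 8.81, Rela with 109.7 ± 2.84 and Rel with 79.4 ± 3.77. The ranges of neighbours in this order did not overlap in WT, and Rel was the least abundant subunit in all 4 groups. In WTL the order changed, with Nfkb1 at 467 ± 4.62 TPM and Nfkb2 at 410.2 ± 8.78 ahead of Relb at 264 ± 7.70, Rela at 145 ± 13.4 and Rel at 70.3 ± 3.21. WT + JSH23 kept the order of WT (Relb 228 ± 9.45, Nfkb1 221 ± 6.30, Nfkb2 207 ± 5.34, Rela 108 ± 3.05 and Rel 78.7 ± 2.43 TPM). There the ranges of Relb and Nfkb1 overlapped, although Relb was above Nfkb1 within 3 of 3 libraries. WTL + JSH23 had the order of WTL, with Nfkb1 at 412 ± 8.79, Nfkb2 at 375 ± 19.6, Relb at 241 ± 5.22, Rela at 147 ± 4.83 and Rel at 70.2 ± 3.05 TPM. Summed over the 5 genes, the level was 915 ± 30.3 TPM in WT, 1356 ± 25.0 in WTL, 842 ± 26.2 in WT + JSH23 and 1245 ± 33.1 in WTL + JSH23.

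**Figure D1:**
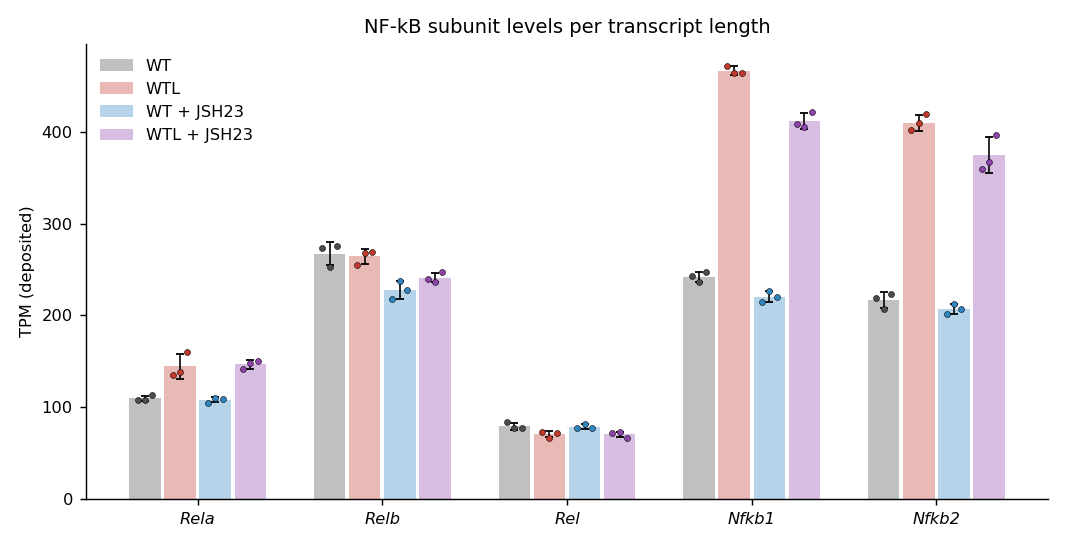
Level per transcript length of each subunit (y axis, deposited TPM) in the 4 groups. Bars are means, error bars the SD and points the 3 libraries. Relb leads without LPS, and Nfkb1 and Nfkb2 lead with LPS, at 467 and 410.2 TPM in WTL.

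To follow each gene between conditions, counts were expressed relative to library size (CPM) with TMM factors, which assume that most genes do not change, and tested with edgeR. The TMM factors differed between libraries with and without LPS (0.859 to 0.880 in WTL, 1.08 to 1.095 in WT), so the direction of small changes depended on the scaling. Under TMM the median log2 fold change of all genes with LPS was -0.05, and it was -0.38 when libraries were scaled to their total counts and -0.26 on the log2(TPM + 1) scale. With JSH-23 present these medians were -0.02, -0.26 and -0.16. Changes whose direction or call depended on the scaling are therefore also given relative to the median of all genes. Scalings of the same counts shift all genes by nearly the same amount. Such values under TMM and total counts are therefore near equal by construction, and only the TPM scale is another measure. Values relative to the median on the TPM scale depend on the constant added to TPM. In log2(TPM + 0.1) the median of all genes with LPS was -0.35, and -0.21 with JSH-23 present.

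LPS raised the transcripts of the precursor genes Nfkb1 and Nfkb2 most among the subunits, by more than 2-fold, and Rela to a smaller degree. A smaller rise of Relb passed the test under TMM, and its call was lost on the total count and TPM scales. A rise of Rel passed the test under TMM but turned into a fall on the total count and TPM scales. In WTL against WT, 5 of 5 subunits were higher at an adjusted p under 0.05, beside 31.0% of all genes tested, and 2 of 5 were higher by more than 2-fold, beside 7.36% of all genes. The CPM values of the 2 groups did not overlap for any of the 5. How many of all genes had no overlap was not counted, in this comparison or in those below. Lack of overlap therefore only describes the genes named. The median log2 fold change of the 5 was 0.76, beside the median of -0.05 for all genes.

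Nfkb1 (ENSMUSG00000028163.17, chr3:135584655-135691547, minus strand) encodes the precursor of the p50 subunit. It was at 399, 391.8 and 402 CPM in the WT libraries and at 957, 950.1 and 939 CPM in the WTL libraries. Every WTL library was above every WT library, and the log2 change was 1.25 ± 0.0346 (SE, adjusted p = 6.55e-18). The gene overlaps Gm43430 on the same strand, whose count was at most 0.325% of that of Nfkb1.

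Nfkb2 (ENSMUSG00000025225.15, chr19:46304320-46312385, plus strand) encodes the precursor of the p52 subunit. It was at 383, 361 and 391 CPM in WT and at 875, 895 and 886 CPM in WTL, again without overlap, a log2 change of 1.23 ± 0.0434 (SE, adjusted p = 4.33e-16). Nfkb2 overlaps Psd and AC114539.1 on the opposite strand and had a fractional expected count in 12 of 12 libraries, so part of its reads was divided between genes. Psd held at most 7.21% and AC114539.1 at most 3.10% as many counts as Nfkb2.

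Rela (ENSMUSG00000024927.8, chr19:5637483-5648130, plus strand) encodes RelA, the transactivating partner of p50 in the canonical dimer and the subunit that JSH-23 is used against. It was at 145, 142 and 149 CPM in WT and at 236, 245 and 256 CPM in WTL, without overlap, a log2 change of 0.76 ± 0.0445 (SE, adjusted p = 2.56e-12). On the total count scale its change was 0.43 and on the log2(TPM + 1) scale 0.39, and both passed the test.

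Relb (ENSMUSG00000002983.17, chr7:19606217-19629438, minus strand), the partner of p52 in the non-canonical dimer, was at 307, 286 and 308 CPM in WT and at 376, 397 and 379 CPM in WTL. The CPM values did not overlap, and the log2 fold change was 0.35 (SE 0.040, adjusted p = 1.02e-07). In TPM the groups overlapped, and the change was -0.02 on that scale (limma, adjusted p = 0.748) and 0.02 with total counts (edgeR, adjusted p = 0.603). Relative to the median of all genes the change was 0.40 under TMM, 0.40 with total counts and 0.24 on the log2(TPM + 1) scale, or 0.33 in log2(TPM + 0.1).

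Rel (ENSMUSG00000020275.9, chr11:23736847-23770970, minus strand) encodes c-Rel. It was at 372, 346 and 345 CPM in WT and at 412, 382 and 391 CPM in WTL, the closest of the 5 pairs of groups, a log2 change of 0.16 ± 0.0412 (SE, adjusted p = 0.00226). On the other scales the direction reversed, to -0.17 with total counts (edgeR, adjusted p = 0.000832) and -0.17 in log2(TPM + 1) (limma, adjusted p = 0.00751), and 3 of 3 WTL libraries were below every WT library in TPM. Relative to the median of all genes the change of Rel was 0.20 under TMM, 0.20 with total counts and 0.09 in log2(TPM + 1), or 0.17 in log2(TPM + 0.1).

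**Figure D2:**
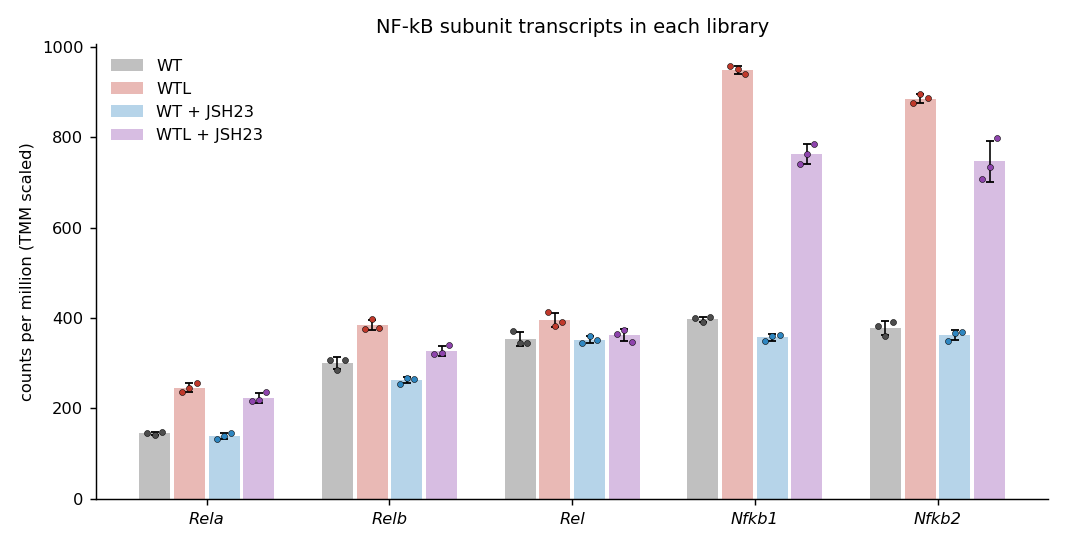
Counts relative to library size (CPM) after TMM scaling (y axis) of each subunit in the 4 groups. Bars are means, error bars the SD and points the 3 libraries. Nfkb1 and Nfkb2 are more than 2-fold higher in WTL than in WT, whereas Rel changes little, and its small rise under this scaling turns into a fall with total counts and TPM.

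The dependence of the smaller changes on the scaling is plotted for WTL against WT. Under every scaling shown, the order of the 5 changes was the same, from Nfkb1 and Nfkb2 over Rela and Relb to Rel, and all 5 lay above the median of all genes. Nfkb1, Nfkb2 and Rela were higher with LPS under each of them.

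**Figure D3:**
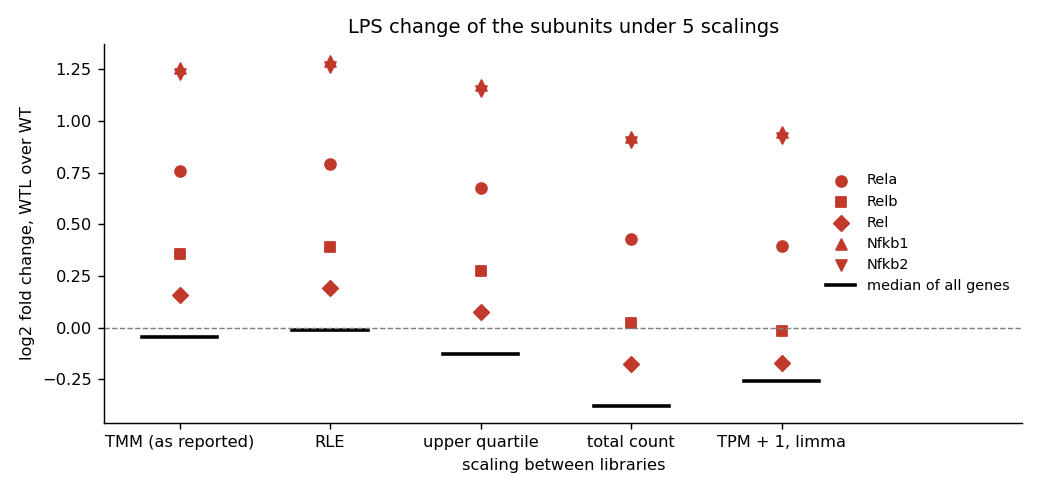
Log2 fold change of WTL over WT (y axis) for the 5 subunits (symbols) and median of all genes (black line) under 5 scalings between libraries (x axis). The lines and symbols shift together, so that Rel lies above 0 at 0.16 under TMM and below 0 at -0.17 with total counts and TPM, and Relb lies at 0.35 under TMM and at -0.02 with TPM.

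With JSH-23 present, LPS raised 4 of the 5 subunits (beside 27.4% of all genes tested), 2 of them by more than 2-fold (beside 5.85% of all genes). Nfkb1 was at 349, 361 and 362 CPM in WT + JSH23 and at 742, 763 and 784 CPM in WTL + JSH23, for a log2 difference of 1.10 (SE 0.0346, adjusted p = 1.23e-16). Nfkb2 was at 350.2, 368 and 369 CPM and at 708, 734 and 798 CPM, for a log2 difference of 1.04 (SE 0.0434, adjusted p = 1.30e-14). For both precursor genes every library with LPS was above every library without it, with the share of such genes among all genes not counted.

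Rela was at 133, 140.1 and 146 CPM in WT + JSH23 and at 217, 218 and 237 CPM in WTL + JSH23, without overlap, and its log2 fold change was 0.68 (SE 0.0448, adjusted p = 3.17e-11). Relb was at 255, 268 and 265 CPM and at 320.2, 323 and 340.2 CPM, also without overlap, a log2 change of 0.32 ± 0.0402 (SE, adjusted p = 7.72e-07). The call for Relb was lost on the total count (0.08, adjusted p = 0.0829) and log2(TPM + 1) (0.08, adjusted p = 0.11) scales, and its change relative to the median of all genes was 0.34 under TMM, 0.34 with total counts and 0.25 in log2(TPM + 1). Rel was at 346, 359.9 and 351 CPM in WT + JSH23 and at 364, 374 and 348 CPM in WTL + JSH23, values that overlapped. Its log2 fold change of 0.04 did not pass the test (95% interval -0.05 to 0.12, adjusted p = 0.447), and it was -0.20 with total counts (adjusted p = 0.000292) and -0.16 in log2(TPM + 1) (limma, adjusted p = 0.0132). Relative to the median of all genes these 3 changes of Rel were 0.06, 0.06 and -0.00062. In log2(TPM + 0.1) the value relative to the median was 0.04.

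To ask whether JSH-23 altered the LPS response of the subunit genes, the LPS change without it was subtracted from the change with it. The difference was -0.16 for Nfkb1 (SE 0.0483, adjusted p = 0.0267) and -0.19 for Nfkb2 (SE 0.0607, adjusted p = 0.0392), so that 2 of 5 subunits passed with a smaller LPS change, beside 8.44% of all genes. Differences for Rel (-0.12, 95% interval -0.24 to 0.00444, adjusted p = 0.181), Rela (-0.08, -0.21 to 0.05, adjusted p = 0.421) and Relb (-0.03, -0.15 to 0.08, adjusted p = 0.741) did not pass. The median over the 5 was -0.12, beside 0.03 for all genes. Both calls were lost with total counts (Nfkb1 -0.07, adjusted p = 0.329, and Nfkb2 -0.09, adjusted p = 0.282), where the median of all genes moved to 0.12, and in log2(TPM + 1) (limma, Nfkb1 -0.05, adjusted p = 0.513, and Nfkb2 -0.07, adjusted p = 0.508). Relative to the median of all genes, the difference for Nfkb1 was -0.18 under TMM, -0.19 with total counts and -0.15 in log2(TPM + 1), and for Nfkb2 it was -0.21, -0.21 and -0.17. Without WTL + JSH23 replicate 3 both remained past the threshold, at -0.18 (adjusted p = 0.00844) and -0.23 (adjusted p = 0.00253), whereas leaving out other single libraries removed the call of Nfkb1 in 6 and of Nfkb2 in 9 of 12 fits. The differences of Rela and Relb turned positive with total counts (0.00916 and 0.06) and in log2(TPM + 1) (0.04 and 0.10). That of Rel did so in log2(TPM + 1) (0.00884), and none of these passed. Relative to the median of all genes they stayed negative under TMM, total counts and log2(TPM + 1). The values were -0.11, -0.11 and -0.06 for Rela, -0.06, -0.06 and -0.00813 for Relb, and -0.14, -0.14 and -0.10 for Rel.

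Among LPS-treated cells, all 5 subunits were lower with JSH-23 under TMM, beside 24.2% of all genes tested, with Nfkb1, Nfkb2 and Relb lower under all scalings and Rela and Rel only under scalings that kept the median of all genes near 0. Nfkb1 was lower in WTL + JSH23 (742 to 784 CPM) than in WTL (939 to 957 CPM), without overlap, a log2 change of -0.31 ± 0.0340 (SE, adjusted p = 9.95e-08). Nfkb2 (708 to 798 against 875 to 895 CPM) changed by -0.25 (SE 0.0427, adjusted p = 5.59e-05) and Relb (320.2 to 340.2 against 376 to 397 CPM) by -0.23 (SE 0.040, adjusted p = 6.28e-05), both without overlap. For these 3 genes the fall was thus larger than the spread between the libraries, with the share of such genes among all genes not counted.

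The changes of Rela (-0.13, SE 0.0441, adjusted p = 0.0153) and Rel (-0.13, SE 0.0413, adjusted p = 0.0149) were smaller. The CPM ranges of Rela overlapped between the groups and those of Rel did not. With total counts, where the median of all genes moved from 0.02 to 0.15, Rela was at -0.00734 (adjusted p = 0.903) and Rel at 0.00172 (adjusted p = 0.977), and in log2(TPM + 1) Rela was at 0.02 (limma, adjusted p = 0.773) and Rel at -0.00234 (limma, adjusted p = 0.976). Relative to the median of all genes, the change of Rela was -0.15 under TMM, -0.16 with total counts and -0.07 in log2(TPM + 1), and that of Rel was -0.15, -0.15 and -0.10. Rel also lost its call without WTL + JSH23 replicate 3 (-0.0978, adjusted p = 0.0614), in which it was lowest of its group while the other 4 subunits were highest, and without WTL replicate 4 (-0.0942, adjusted p = 0.0992). Rela lost its call without WTL replicate 6 (-0.104, adjusted p = 0.0837), WTL + JSH23 replicate 1 (-0.108, adjusted p = 0.0884) or WTL + JSH23 replicate 2 (-0.116, adjusted p = 0.0624). The median over the 5 subunits was -0.23.

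In cells without LPS, 2 of 5 subunits were lower with JSH-23, beside 22.1% of all genes tested. Relb fell from 286 to 308 CPM across the WT libraries to between 255 and 268 CPM in WT + JSH23, a log2 change of -0.19 ± 0.0401 (SE, adjusted p = 0.000455). Nfkb1 (391.8 to 402 against 349 to 362 CPM) had a log2 change of -0.16 ± 0.0344 (SE, adjusted p = 0.000872). Neither pair of ranges overlapped, with the share of all genes without overlap not counted. The other 3 did not pass and their ranges overlapped, with -0.06 for Nfkb2 (95% interval -0.15 to 0.03, adjusted p = 0.283), -0.05 for Rela (-0.15 to 0.04, adjusted p = 0.375) and -0.01 for Rel (-0.10 to 0.08, adjusted p = 0.88). The sign for Rel reversed with total count scaling (0.03) and upper quartile scaling (0.0074), and relative to the median of all genes the change of Rel was -0.00169 under TMM and -0.00169 with total counts.

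**Figure D4:**
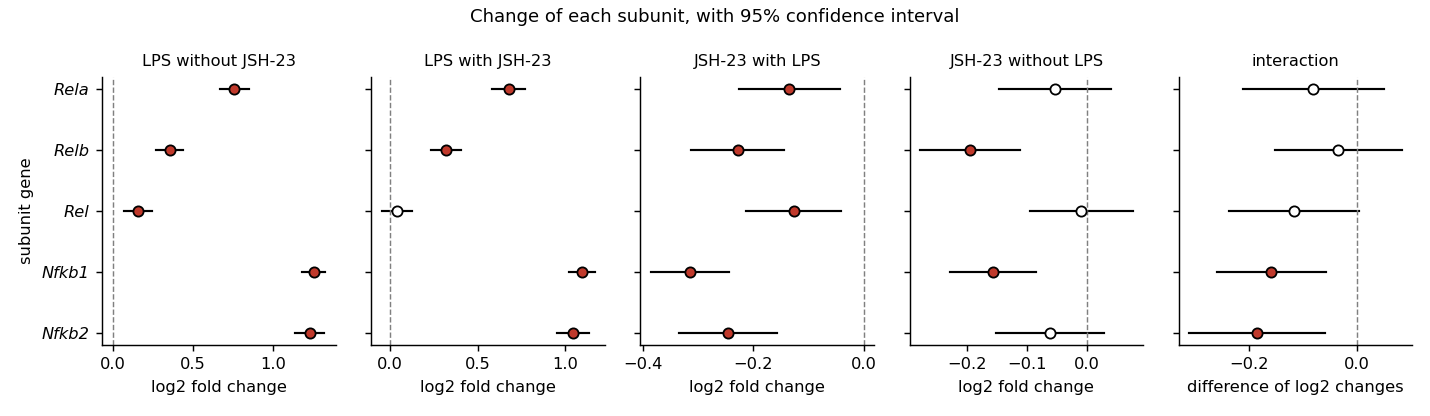
Log2 fold change of each subunit under TMM scaling (x axis, its scale differs between panels) in the 4 comparisons and the difference of the LPS changes with and without JSH-23 (interaction). Lines are 95% intervals and filled points passed an adjusted p of 0.05. Nfkb1 and Nfkb2 lie at 1.25 and 1.23 with LPS alone, while changes with JSH-23 lie between -0.31 and -0.01, and with total counts Rela (-0.00734) and Rel (0.00172) do not pass in the panel of JSH-23 with LPS, nor any subunit in that of the interaction, and Rel reverses in the panels of LPS and of JSH-23 without LPS.

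Whether the subunits changed unequally was examined by their TPM ratios within each library, which do not depend on the scaling between libraries. The labels of LPS were permuted among libraries without JSH-23 and among those with it, and likewise for JSH-23 (exact, two-sided, 400 relabelings, smallest possible p 0.005), and p values were adjusted over the 20 tests of 10 pairs and 2 agents. LPS altered 9 of the 10 ratios. The Nfkb1 to Rel ratio rose from 3.05 ± 0.142 in WT to 6.65 ± 0.265 in WTL, and from 2.80 ± 0.0262 to 5.88 ± 0.389 with JSH-23 present, a mean log2 change of 1.09 (exact permutation p = 0.005, adjusted p = 0.01). The Nfkb2 to Relb ratio, which sets the non-canonical precursor against its partner, rose from 0.810 ± 0.00921 to 1.55 ± 0.0223 and from 0.909 ± 0.0143 to 1.55 ± 0.0548, a log2 change of 0.86 (exact permutation p = 0.005, adjusted p = 0.01). The Nfkb1 to Rela ratio, which sets the canonical precursor against its partner, rose from 2.21 ± 0.0300 to 3.25 ± 0.306 and from 2.04 ± 0.0248 to 2.81 ± 0.0848, a log2 change of 0.51 with the same p values. The precursor transcripts thus rose with LPS relative to those of their partners, with no overlap between libraries with and without LPS.

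The smallest altered ratio was that of Relb to Rel, with a mean log2 change of 0.20 (0.16 without and 0.25 with JSH-23, exact permutation p = 0.01, adjusted p = 0.0154). The ratio of Nfkb1 to Nfkb2 was 1.12 ± 0.0211 in WT and 1.14 ± 0.0341 in WTL, and its log2 change of 0.04 did not pass (exact permutation p = 0.12, adjusted p = 0.133), although it passed without WTL + JSH23 replicate 3 (0.05, adjusted p = 0.0438). JSH-23 altered 6 of 10 ratios in the mean of its changes with and without LPS, in which opposite changes cancel. Thus Nfkb1 to Relb changed by 0.10 without LPS and by -0.05 with it, each without overlap of libraries. Its mean of 0.02 did not pass (exact permutation p = 0.45). Nfkb2 to Relb changed by 0.17 without LPS and by 0.00148 with it (exact permutation p = 0.05, adjusted p = 0.0625). The largest mean change was the Rela to Relb ratio, 0.411 ± 0.0154 in WT and 0.475 ± 0.00799 in WT + JSH23, and 0.547 ± 0.0405 in WTL and 0.608 ± 0.0204 in WTL + JSH23, a log2 change of 0.18 (exact permutation p = 0.01, adjusted p = 0.0154). With JSH-23, Nfkb1 was lower relative to Rela (-0.16, exact permutation p = 0.005, adjusted p = 0.01) and to Rel (-0.15, same p values). Relb was lower relative to Rel (-0.17, exact permutation p = 0.01, adjusted p = 0.0154). The ratio of Nfkb2 to Rela (-0.10, adjusted p = 0.04) lost its call without WT replicate 4 or 6, WTL replicate 4, WT + JSH23 replicate 3 or any 1 of the WTL + JSH23 libraries, between -0.112 and -0.084 with adjusted p from 0.0533 to 0.119.

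**Figure D5:**
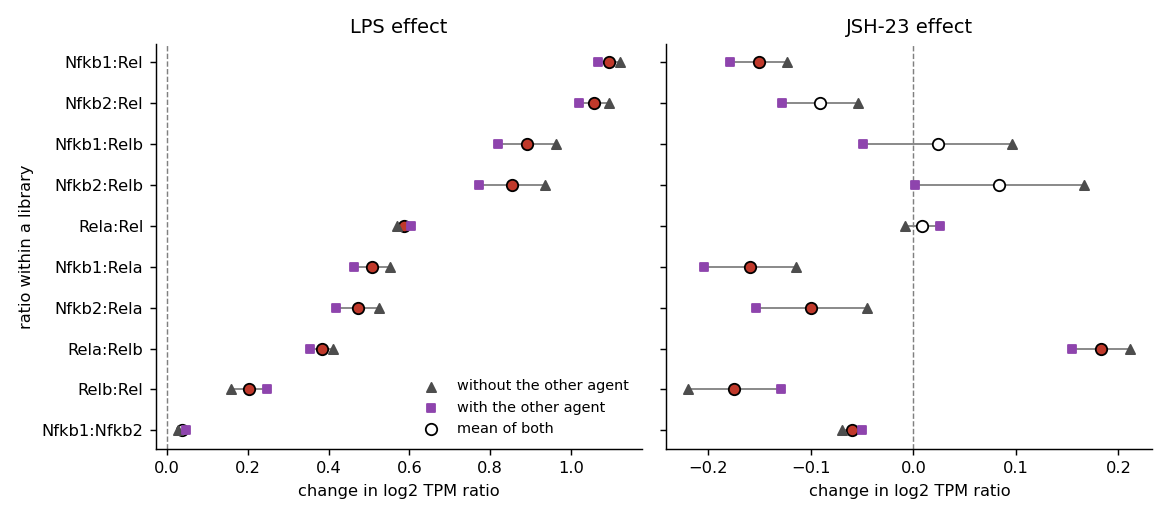
Change of the log2 TPM ratio of each pair of subunits (rows) with LPS (left) and with JSH-23 (right), on x axes of different scale. Triangles are the change in libraries without the other agent, squares with it, and circles their mean, filled where the adjusted p was under 0.05. In the means, LPS moved 9 pairs by 0.20 to 1.09 and JSH-23 moved pairs by at most 0.18, while single symbols lie outside these bounds, such as Relb to Rel at -0.22 with JSH-23 in cells without LPS.

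The abundance-weighted transcript length that RSEM gives per gene shows whether longer or shorter annotated transcripts received the reads. Relb was 2067 ± 5.61 bases in WT and 2112 ± 14.0 in WTL, and 2108 ± 16.0 bases in WT + JSH23 and 2148 ± 6.57 in WTL + JSH23, and was longer in every library with LPS than in any of the matching group without it. Nfkb2 went the other way, from 3071 ± 20.2 to 3020 ± 13.5 bases and from 3072 ± 23.2 to 3033 ± 6.70 bases. Rel had 7466 bases in all 12 libraries. These lengths were not tested.

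Over the 12 libraries, which fall into 4 groups, the log2 CPM of Nfkb1 and Nfkb2 had a Pearson r of 0.997, and r with Rela was 0.991 for Nfkb1 and 0.996 for Nfkb2. Rel was the least similar to the rest, with r between 0.65 (Rela) and 0.74 (Relb). Among 7693 other protein-coding genes with a mean of at least 10 CPM, the pattern of Nfkb1 was close to those of Cd40 (r = 0.999), a co-stimulatory receptor, and the chemokine gene Ccl3 (0.999). Nfkb2 was most like Zc3h12a (0.998), which encodes an mRNA-degrading nuclease, Dennd5a (0.998) and Akna (0.998). For Rela the genes were Akna (0.995), Csrnp1 (0.994) and Nans (0.994), and for Relb they were the chemokine gene Cx3cl1 (0.991), Dlgap4 (0.990) and Fmnl1 (0.990). Rel had no neighbour as close, with Dusp11 (0.916), Rhoq (0.902) and Snrpd1 (0.887). These values describe 4 group means more than 12 independent points.

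The other genes of the pathway were taken from 7 lists of 62 symbols, of which 61 matched the files and were tested. The symbol Skp1 had no match, and Skp1a did. With LPS alone, 40 of the 61 were higher and 12 lower, beside 31.0% and 34.7% of all genes tested, and the median log2 fold change was 0.31. With total counts these numbers were 28 and 29, and in log2(TPM + 1) 27 and 21, so the excess of higher genes depended on the scaling. The counts of single lists below are under TMM and are to be read against these shares of all genes. With JSH-23 present, LPS raised 37 and lowered 9 (beside 27.4% and 27.1% of all genes), or 25 and 23 with total counts. The genes named below were the 2 largest changes that passed in a list and comparison, with some exceptions. These are the JSH-23 changes of Nfkbib, the LPS fall of Tbkbp1 with JSH-23 present and Birc3 in LPS-treated cells. Ikbkb with LPS alone and in the difference is also among them. Values of the exceptions under other scalings are not given. A named gene may also have passed in comparisons where it is not named. The 2 largest changes kept their direction under all scalings tried and without WTL + JSH23 replicate 3, and calls that were lost are stated.

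The IκB inhibitors rose together, 6 of 6 with LPS alone and 6 of 6 with JSH-23 present, and did so under every scaling. Nfkbiz, an atypical nuclear IκB that acts as a cofactor, rose from 26.04 ± 1.40 to 823 ± 31.7 CPM, or 4.98 on the log2 scale (adjusted p = 1.11e-24), and by 4.97 with JSH-23 present. Nfkbia, the inhibitor that holds RelA dimers in the cytoplasm, rose from 266 ± 0.541 to 1180.1 ± 42.9 CPM (log2 fold change 2.15, adjusted p = 2.32e-20), and by 2.03 with JSH-23 present. The levels with LPS were lower under JSH-23 for 5 of the 6 (beside 24.2% of all genes), all but Nfkbib, which was at -0.09. Nfkbiz was at 434 ± 15.0 CPM in WTL + JSH23 (log2 fold change from WTL -0.92, adjusted p = 6.85e-14), and Bcl3 had a log2 fold change of -0.57 (adjusted p = 1.16e-09). In cells without LPS, 5 of the 6 were lower with JSH-23 (beside 22.1% of all genes). Nfkbiz was at -0.91 (adjusted p = 3.4e-11) and Nfkbie at -0.34 (adjusted p = 1.6e-07), while Nfkbib, named after its value was seen, was higher by 0.26. The LPS change was smaller with JSH-23 for Nfkbib (-0.35, adjusted p = 0.00178) and Bcl3 (-0.28, adjusted p = 0.00494), and both calls were lost in log2(TPM + 1).

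Of the 10 feedback inhibitors and deubiquitinases, 8 rose with LPS alone and 8 with JSH-23 present. Tnfaip3, which encodes the ubiquitin-editing inhibitor A20, rose from 258 ± 6.29 to 1655 ± 51.7 CPM (log2 fold change 2.68, adjusted p = 1.73e-21), and by 2.61 with JSH-23 present. Its partner Tnip1 rose by 1.71 (adjusted p = 9.86e-20) and by 1.36 with JSH-23 present, a difference of -0.36 (adjusted p = 4.78e-05). With total counts 6 rose and 3 fell with LPS alone, and 6 and 2 with JSH-23 present. In LPS-treated cells 6 of the 10 were lower and 3 higher with JSH-23 (beside 24.2% and 24.5% of all genes), which became 3 lower and 4 higher with total counts and in log2(TPM + 1). Under TMM the largest falls were those of Tnip3 (-0.49, adjusted p = 1.35e-09) and Tnip1 (-0.45, adjusted p = 6.7e-10). Itch, a ubiquitin ligase, was lower with JSH-23 in cells without LPS (-0.67, adjusted p = 2.05e-11), as was Tnip3 (-0.50, adjusted p = 1.42e-09). The difference of the LPS changes was 0.46 for Itch (adjusted p = 1.43e-05).

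Among the 13 genes of the canonical IKK complex and its upstream kinases, 7 rose and 3 fell with LPS alone, and 9 rose and 3 fell with JSH-23 present. With total counts the balance turned to 5 higher and 7 lower with LPS alone, and to 5 and 5 with JSH-23 present. Map3k8, the kinase Tpl2 that binds the Nfkb1 precursor, rose from 24.1 ± 1.41 to 70.6 ± 6.17 CPM (log2 fold change 1.55, adjusted p = 6.89e-15), whereas Tab1, an activator of the kinase TAK1, fell from 14.6 ± 0.633 to 5.05 ± 0.487 CPM (-1.54, adjusted p = 9.06e-13). With JSH-23 present, Ikbkb, the catalytic subunit of the canonical IKK complex, rose from 204 ± 7.33 to 401 ± 10.3 CPM (0.98, adjusted p = 4.96e-15) and Map3k8 by 1.25 (adjusted p = 3.14e-12). Ikbkb rose more with LPS alone (log2 fold change 1.27, adjusted p = 3.12e-17). The difference of its LPS changes was -0.29 (adjusted p = 0.000688). JSH-23 raised Ikbkg, the regulatory IKK subunit NEMO, both with LPS (from 119 ± 4.36 to 226 ± 11.95 CPM, log2 fold change 0.93, adjusted p = 2.45e-13) and without it (0.79, adjusted p = 3.33e-12). It lowered Map3k8 both with LPS (-0.91, adjusted p = 1.02e-10) and without it (-0.61, adjusted p = 6.64e-07). The LPS change of Map3k8 was smaller with JSH-23 (-0.30, adjusted p = 0.0382), a call lost with total counts, TPM or without WTL + JSH23 replicate 3, and that of Tab1 was less negative (0.56, adjusted p = 0.00264).

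In the non-canonical branch, 6 of 10 genes rose and 3 fell with LPS alone, which became 4 and 5 with total counts and 4 and 4 in log2(TPM + 1). Map3k14, which encodes NIK, fell from 263 ± 8.77 to 42.3 ± 0.983 CPM (log2 fold change -2.64, adjusted p = 1.01e-20), and with JSH-23 present from 218 ± 11.4 to 64.9 ± 3.38 CPM (-1.75, adjusted p = 7.58e-18), a difference of 0.88 (adjusted p = 2.95e-08). Cd40, a receptor that feeds the branch, rose from 306 ± 4.35 to 1809 ± 64.3 CPM (2.56, adjusted p = 2.93e-21) and by 2.29 with JSH-23 present. In LPS-treated cells Cd40 was lower with JSH-23 (-0.64, adjusted p = 3.58e-11). Birc3, a ligase that marks NIK for degradation, was lower with JSH-23 both in cells without LPS (-0.45, adjusted p = 7.84e-10) and in LPS-treated cells (-0.55, adjusted p = 2.06e-11). For Tnfrsf11a, the receptor RANK, the LPS changes differed by 0.37 (adjusted p = 0.000279). Tnfrsf13c, the receptor for BAFF, was a low gene, at 0.232 ± 0.0882 CPM in WT, 1.00 ± 0.0883 in WTL and 0.0960 ± 0.0702 in WTL + JSH23, with at most 3 counts in each WT + JSH23 library, so that no fold change is given.

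Of the 5 IKK-related kinases and adaptors, 4 rose and Tbkbp1 fell in both LPS comparisons (with total counts 4 rose with LPS alone and 3 with JSH-23 present). Tank, an adaptor of TBK1, rose from 216 ± 6.72 to 511 ± 25.9 CPM (log2 fold change 1.24, adjusted p = 2.33e-16) and by 0.90 with JSH-23 present, and Tbkbp1 had a log2 fold change of -0.82 (adjusted p = 1.68e-08). With JSH-23 present Ikbke rose by 0.87 (adjusted p = 3.41e-13). JSH-23 lowered Azi2 in LPS-treated cells (-0.49, adjusted p = 4.56e-09) and Tbkbp1 in cells without LPS (-0.42, adjusted p = 0.000139). Ikbke, which encodes IKKε, was lower with JSH-23 in LPS-treated cells (log2 fold change -0.91, from 671 ± 3.24 to 356 ± 23.7 CPM, adjusted p = 2.49e-13) and in cells without LPS (-1.05, from 405 ± 7.73 to 195 ± 7.70 CPM, adjusted p = 4.75e-14). In the ubiquitin ligase list, 6 of 7 genes rose with LPS alone and 3 of 7 with JSH-23 present, while 1 fell in each. The balance turned with total counts, to 2 higher and 4 lower with LPS alone and 1 higher and 4 lower with JSH-23 present, and was 2 and 2 in log2(TPM + 1) with LPS alone. Fbxw11, an F-box protein that recognises phosphorylated IκB, rose by 0.88 (adjusted p = 7.44e-14) and by 0.59 (adjusted p = 1.89e-10), and Ube2d3, a ubiquitin-conjugating enzyme, rose by 0.51 (adjusted p = 4.51e-10) and by 0.29 (adjusted p = 3.48e-06, not passed with total counts). With JSH-23, Fbxw11 was lower in LPS-treated cells (-0.52, adjusted p = 1.2e-09) and without LPS (-0.22, adjusted p = 0.000229), as were Nedd8 with LPS (-0.18, adjusted p = 0.00192, not passed with total counts or TPM) and Btrc, the paralog of Fbxw11, without LPS (-0.33, adjusted p = 0.000325). Of the 10 nuclear cofactors and modifiers of RelA, 3 rose and 2 fell with LPS alone, a share of higher genes near the 31.0% of all genes, and the balance turned to 1 higher and 9 lower with total counts and 0 higher and 7 lower in log2(TPM + 1) (limma). The largest changes were those of Prkaca (-0.50, adjusted p = 6.65e-08) and Sirt1 (0.46, adjusted p = 6.59e-07, not passed in log2(TPM + 1)). Hdac1, a histone deacetylase, was lower with JSH-23 in LPS-treated cells (-0.57, adjusted p = 1.42e-10) and in cells without LPS (-0.46, adjusted p = 3.86e-09). With JSH-23 present, LPS changed Prkaca by -0.39 (adjusted p = 4.59e-06) and Sirt1 by 0.33 (adjusted p = 0.000139, not passed with total counts or TPM). Sirt1, a deacetylase of RelA, was lower with JSH-23 in LPS-treated cells (-0.35, adjusted p = 5.79e-05) and Ep300, an acetyltransferase of RelA, in cells without LPS (-0.39, adjusted p = 5.14e-07).

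Over the 61 genes, JSH-23 lowered 30 and raised 10 in LPS-treated cells (beside 24.2% and 24.5% of all genes), with a median log2 fold change of -0.11, and lowered 29 and raised 7 in cells without LPS (beside 22.1% and 18.8%), with a median of -0.10. With total counts the numbers were 23 lower and 20 higher with LPS and 26 lower and 10 higher without it. The LPS change differed with JSH-23 for 19 of the 61, smaller or more negative for 12 and larger or less negative for 7 (beside 8.44% and 9.54% of all genes). With total counts the 12 became 8 and the 7 became 17. The differences were -0.34 for Tank (adjusted p = 0.000387), -0.30 for Fbxw11 (adjusted p = 0.0016, not passed in TPM), 0.39 for Tbkbp1 (adjusted p = 0.027, not passed in DESeq2 or TPM) and 0.29 for Btrc (adjusted p = 0.0479, not passed under 5 of the settings tried, DESeq2 and RLE scaling included). The comparisons with LPS and with JSH-23 share libraries, so their values are not independent.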

How the data were processed

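RNA-seq was analysed for 12 libraries in 4 groups, assigned from the sample titles. The authors trimmed reads with Trim Galore, aligned them to mm10 with STAR (version 2.6.0c in the submitters' notes) and quantified genes with RSEM. The labels name rRNA depletion and the methods a polyA kit. The deposited expected counts carry no normalization between libraries, so long or highly expressed genes gather more counts. The deposited TPM values were computed by the authors from them and the effective transcript length. TPM sums to a fixed total, so a rise of abundant genes lowers the rest. Symbols and positions came from GENCODE M21, which matched 55154 of 55335 gene identifiers without the version suffix and 54587 with it. The release the authors used is not given in the sources used here.

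Expected counts were rounded. In R 4.3.3, edgeR 4.0.16 (filterByExpr, TMM, quasi-likelihood F-test, 1 mean per group, all 12 libraries, 8 residual degrees of freedom) tested 14357 genes in 5 comparisons, with Benjamini-Hochberg adjustment over all of them and a threshold of 0.05. Where no tool is given, an adjusted p value is that of edgeR, and SE is the log2 fold change divided by the square root of F. Alternatives were DESeq2 1.42.0, RLE, upper quartile and total count scaling, other filters, limma 3.58.1 on log2(TPM + 1) or log2(TPM + 0.1), only the groups compared, a replicate block and leaving out each library. The fit was tested on simulated counts. Every subunit is named. Apart from the exceptions stated with the lists, a list names the 2 members with the largest absolute change that passed, and any at 3 counts or fewer throughout a group. The 3 protein-coding genes of highest Pearson r with each subunit are named, of which 1 is not reported here. The members and lists were chosen with earlier results of these data known.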

Additional observations from a re-analysis of the deposited data

Results flagged for a closer look

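The LPS change differed with JSH-23 for 2 subunits by a direct test of that difference. Nfkb1 had an LPS log2 fold change of 1.25 without and 1.10 with JSH-23, a difference of -0.16 (edgeR, adjusted p = 0.0267). Nfkb2 had 1.23 and 1.04, a difference of -0.19 (edgeR, adjusted p = 0.0392). Both calls were lost with total counts (edgeR, adjusted p = 0.329 for Nfkb1 and 0.282 for Nfkb2) and in log2(TPM + 1) (limma, adjusted p = 0.513 and 0.508), that of Nfkb1 with no filter on low counts (adjusted p = 0.0899), and leaving out 1 library removed that of Nfkb1 in 6 and that of Nfkb2 in 9 of 12 fits.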

How the results depend on the processing

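Among the alternatives, DESeq2, RLE scaling and a mean of at least 1 CPM kept the direction and the call of every subunit in every comparison. The total count scaling was chosen after seeing the data. In WTL against WT, Rel was at 0.0745 with upper quartile scaling (adjusted p = 0.119), -0.174 with total counts, -0.172 in log2(TPM + 1) and -0.174 in log2(TPM + 0.1), and Relb at 0.0235, -0.016 and -0.0161 in the last 3. With JSH-23 present, Rel was at -0.0451 with upper quartile scaling and at -0.20, -0.163 and -0.165 in the same 3, and Relb at 0.0805, 0.0827 and 0.083. For JSH-23 with LPS, Rel was at 0.00172, -0.00234 and -0.00237 and Rela at -0.00734, 0.0231 and 0.0232, and 3 subunits passed in each. For JSH-23 without LPS, Rel was at 0.0074 with upper quartile scaling, 0.0274 with total counts and 0.0103 with only the groups compared. For the interaction, the same 3 scalings gave -0.0678, -0.0467 and -0.0466 for Nfkb1 and -0.0945, -0.0653 and -0.0653 for Nfkb2, with 0 subunits passing (edgeR or limma), 0.00916, 0.0422 and 0.0426 for Rela, 0.0569, 0.0987 and 0.0991 for Relb, and in TPM 0.00884 and 0.00893 for Rel. With no filter on low counts Nfkb1 was at -0.153 (adjusted p = 0.0899) and 1 subunit passed. The shift of the median of all genes is built into the total count scaling. The cause of the other changes was not tested. The share of higher genes among all that passed moved with LPS from 47.2% to 19.7% with total counts (50.3% to 20.9% with JSH-23 present), with JSH-23 in LPS-treated cells from 50.3% to 70.9%, and for the interaction from 53.1% to 79.3%.

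Leaving out 1 library at a time gave, for JSH-23 with LPS, -0.151 to -0.0942 for Rel and -0.174 to -0.104 for Rela, and 4 to 5 subunits passing. It gave -0.0278 to 0.0269 for Rel with JSH-23 alone. For the interaction it gave -0.179 to -0.136 for Nfkb1 (adjusted p 0.00844 to 0.086), -0.235 to -0.146 for Nfkb2 (adjusted p 0.00253 to 0.125) and -0.0615 to 0.00091 for Relb, with 0 to 2 subunits passing. For the interaction, 0 subunits passed (edgeR) without WT replicate 4, WT replicate 5, WTL replicate 4, WTL replicate 5, WT + JSH23 replicate 3 or WTL + JSH23 replicate 1, and 1 passed without WTL replicate 6, WT + JSH23 replicate 2 or WTL + JSH23 replicate 2. Among the ratios with JSH-23, the ranges were -0.0715 to -0.0476 for Nfkb1 to Nfkb2, -0.13 to -0.0698 for Nfkb2 to Rel, -0.129 to -0.084 for Nfkb2 to Rela, 0.0711 to 0.0966 for Nfkb2 to Relb and -0.0276 to 0.0407 for Rela to Rel, and with LPS 0.0248 to 0.0487 for Nfkb1 to Nfkb2. From expected counts in place of TPM, the JSH-23 change was -0.0243 for Nfkb1 to Relb, -0.0599 for Nfkb2 to Rela (adjusted p = 0.0867) and -0.0268 for Rela to Rel. Deviations of same-numbered libraries had r from -0.03 to 0.33 over 7855 genes, and not every library correlated best with its own number, so numbers were not taken as pairs. The replicate block, which was possible only for the LPS comparisons, the interaction and the LPS ratios, changed no call of a subunit, with log2 fold changes of 1.25 and 1.23 for Nfkb1 and Nfkb2 in WTL against WT. By Spearman's rho, 0 of the 3 most similar genes were the same for each subunit. No paired analysis was possible for the JSH-23 comparisons because those groups share no replicate numbers. The counting error of a subunit in a library was at most 1.61%, and each group had 3 libraries.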
